A study of Rattus norvegicus with 12 samples.

Results

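Integrins, cadherins, protocadherins and the adhesion molecules of the Ncam, L1, contactin, Cadm and Alcam families were followed in cultured rat optic nerve head astrocytes exposed to epidermal growth factor (EGF). The members were every gene whose single symbol on the array named an integrin alpha or beta subunit, a Cdh cadherin, a Pcdh protocadherin, Ncam1 or Ncam2, a contactin, a Cadm protein, L1cam, Nrcam or Alcam. This gave 67 of the 14217 genes with a single symbol, read by 98 probe sets, and each gene was represented by its probe set with the highest mean signal. Astrocytes treated with EGF for 4 h were compared with untreated sister cultures, and astrocytes treated with EGF for 12 h with the untreated cultures of a second experiment, with 3 arrays in each of the 4 groups. The cells were primary cultures, and the EGF dose and the strain, age and sex of the rats are not given in the labels. Whether the 3 arrays of a group came from separate cultures is also not given, so the p-values measure the spread between these arrays, which may be partly technical.

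Integrins are heterodimers of an alpha and a beta subunit that bind matrix proteins or cell-surface ligands outside the cell and, through talin, kindlin and other adaptors, the actin cytoskeleton inside it. Classical cadherins bind the same cadherin on a neighbouring cell and are anchored to actin by catenins, whereas protocadherins and the immunoglobulin-type molecules Ncam1, L1cam, contactins, Cadm proteins and Alcam mediate recognition between neural cells. Astrocytes of the optic nerve head form the glial columns through which retinal ganglion cell axons leave the eye, and they hold to one another and to basement membranes through these families.

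Signals are array intensities on which every array had been set to the same trimmed mean, and fold changes are log2 differences of signal plus an offset of 24.4, given with the standard error of the limma fit, for which the median over tested probe sets was 0.23. A call means a Benjamini-Hochberg adjusted p under 0.05 over the 18625 probe sets whose mean signal reached 215.4. Of the 67 members 30 passed this filter on dim probe sets. As the arrays measured RNA of whole cultures, fewer cells of a type and less RNA per cell cannot be told apart. The arrays did not form one uniform set. Both replicate 3 arrays at 4 h had mean hybridisation control signals of 21217 (EGF) and 23645 (control), against 49.6 to 110.8 on the other 10 arrays. At 12 h the actin 3' to 5' signal ratio was 1.24 on EGF replicate 3 and 11.1 to 21.7 on the other 5 arrays, and it was 1.20 to 1.61 on the 4 h arrays. Of 9 astrocyte markers measured 4 passed the filter, and of these the connexin gene Gjb6 alone was called, lower with EGF at 12 h. Vim, an intermediate filament gene of astrocytes and of many other cells, had 60217 to 116059 signal units, whereas Gfap, the defining astrocyte filament, had 36.2 to 347.4, and Aqp4, Slc1a2, Aldh1l1 and Pax2 were also below the filter. Gfap and these genes were thus at the dim end of the arrays, while 4 other astrocyte markers, Vim and Gjb6 among them, passed the filter.

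EGF moved the members in both directions. At 4 h 7 of the 30 tested members rose and 5 fell, where 32.4% of all 10261 tested genes were called, 12.8% higher and 19.6% lower. At 12 h 9 rose and 10 fell, where 40.8% of tested genes were called, 16.5% higher and 24.2% lower. The median log2 fold change of the tested members was -0.19 at 4 h and -0.03 at 12 h, beside -0.17 and -0.09 over all tested genes. When each array was centred on its median the counts were 7 higher and 3 lower at 4 h and 11 higher and 8 lower at 12 h, and the median fold change of all tested probe sets was -0.04 at 4 h and 0.04 at 12 h, beside -0.15 and -0.06 without centring. With centring 2477 of the 18625 tested probe sets were called higher and 2189 lower at 4 h, and 3436 and 3091 at 12 h. Without it 2118 and 3068 were called at 4 h, and 2848 and 3882 at 12 h. The integrin subunits Itga3, Itga5, Itga6 and Itgb3 rose at both times. Cdh1, Cdh10, Cdh11 and Itgb5 were called lower at both times, though the 12 h call of Itgb5 was lost in many alternatives. Pcdh18 was the only tested member called in opposite directions, higher at 4 h and lower at 12 h. Cdh3 and Pcdh19 passed the test as higher at 4 h alone and Alcam as lower at 4 h alone. Cadm1, Cdh13, Cdh17, Itga8 and Itgb1 were called higher at 12 h alone, and Itga11, Itgb4, Pcdhb9, Pcdhb12 and Pcdhb19 lower at 12 h alone. The other 8 tested members passed at neither time.

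**Figure D1:**
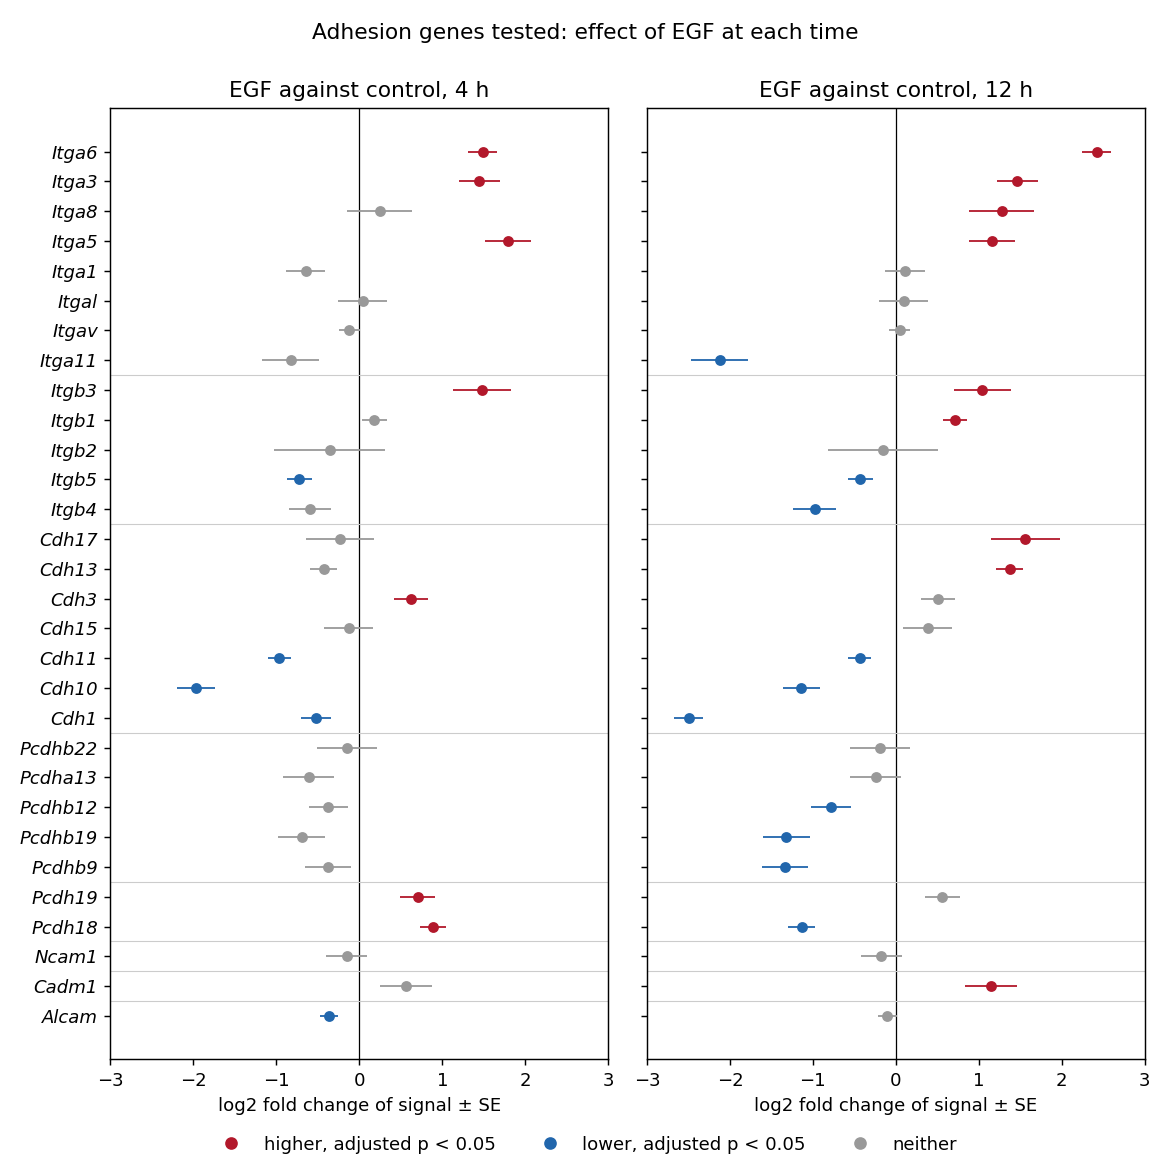
Log2 fold change, EGF over control, of each of the 30 tested members at 4 h and at 12 h, with bars of 1 standard error of the limma fit. Itga6 at 2.42 and Cdh1 at -2.50, both at 12 h, lie farthest to the right and left, and Pcdh18 lies above 0 at 4 h and below 0 at 12 h.

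Itga6, the alpha subunit of laminin receptors, showed the largest increase of the tested members at 12 h. At 4 h its signals were 7138, 6714 and 6856 on the EGF arrays, against 2005, 2325 and 3137 on the control arrays. At 12 h they were 12122, 13613 and 11027 with EGF, against 1975, 2765 and 2116 in controls. Every EGF array lay far above every control array of its time, while the controls of both times covered much the same range. The log2 fold changes were 1.49 ± 0.17 at 4 h (adjusted p = 3.04e-05) and 2.42 ± 0.17 at 12 h (adjusted p = 2.1e-07). The gene's second brightest probe set gave 0.99 ± 0.40 at 4 h, which did not pass (adjusted p = 0.0842), and 2.04 at 12 h.

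Itga3, the alpha subunit of another laminin receptor, had signals of 2453, 2891 and 2043 with EGF at 4 h, against 1114, 561 and 1081 in controls. The 12 h signals were 4473, 3776 and 3634 with EGF, against 1719.6, 1406 and 1170.5 in controls. The groups did not overlap at either time, and the rise was of much the same size at both. It came to 1.45 ± 0.24 at 4 h (adjusted p = 6.51e-04) and 1.46 ± 0.24 at 12 h (adjusted p = 4.06e-04).

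Itga5 encodes the alpha subunit of the classical fibronectin receptor. Its signals at 4 h were 4298, 4129.9 and 3043 with EGF, against 1323, 1052 and 892 in controls. At 12 h they were 849, 1031 and 2043 with EGF, against 527, 545 and 521 in controls. The EGF arrays were higher at both times, and the highest of the EGF arrays at 12 h was replicate 3, the array with the low actin ratio. The log2 fold changes were 1.79 ± 0.27 at 4 h (adjusted p = 3.02e-04) and 1.16 ± 0.27 at 12 h (adjusted p = 0.00477). Without that array the 12 h value was 0.79 (adjusted p = 0.00617).

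Itgb3 encodes the beta subunit that joins the alpha v subunit in a receptor for vitronectin and other RGD-containing ligands. It was dim, with signals of 434, 443 and 292 with EGF at 4 h, against 119, 145 and 104 in controls. Signals at 12 h were 618, 416 and 452 with EGF, against 131, 282 and 299.7 in controls. No EGF array fell among the controls at either time. The fold change was 1.48 ± 0.35 at 4 h (adjusted p = 0.00624) and 1.04 ± 0.35 at 12 h (adjusted p = 0.0314). The 12 h call was lost without control replicate 1 (0.70, adjusted p = 0.135) or EGF replicate 1 (0.88, adjusted p = 0.0982). It was also lost with each time fitted alone (adjusted p = 0.061) and with no filter on dim probe sets (adjusted p = 0.0618). The 4 h call held with no filter (adjusted p = 0.013). Itgb3 passed the filter through its EGF arrays, which averaged 389.6 at 4 h and 495.2 at 12 h. Its control arrays averaged 122.9 and 237.4, so it entered the test through the groups where it was high.

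**Figure D2:**
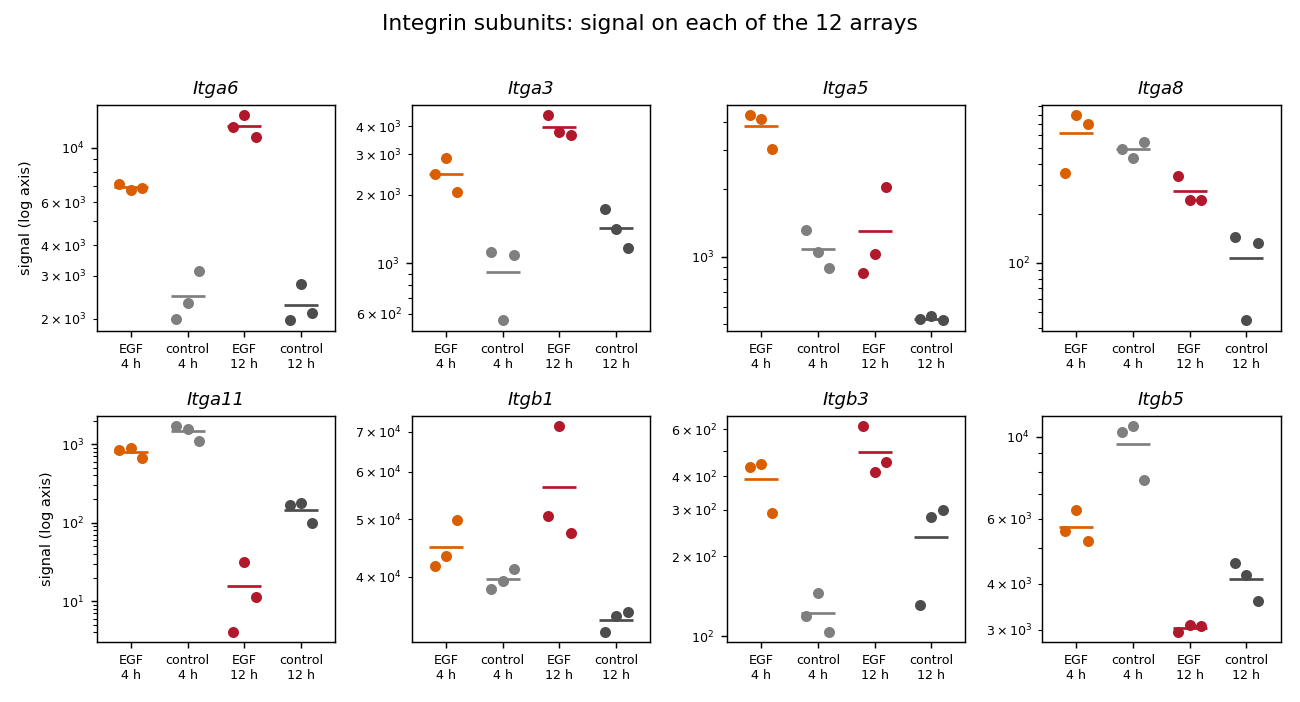
Signal on each array, on a log axis, of Itga6, Itga3, Itga5, Itga8, Itga11, Itgb1, Itgb3 and Itgb5, with EGF arrays left of their controls at each time and short lines at the group means. The EGF points of Itga3, Itga5, Itga6 and Itgb3 sit above all control points of the same time, whereas those of Itga11 at 12 h, at 4.1 to 31.8, sit below controls at 98.4 to 176.

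Itgb1, the common beta subunit of most matrix-binding integrins, passed at 12 h alone. Its signal averaged 44968 ± 4282 with EGF and 39609 ± 1581 in controls at 4 h (SD, n = 3 each), a log2 fold change of 0.18 ± 0.15 that did not pass (adjusted p = 0.408). It averaged 56499.5 ± 13169 with EGF and 33914 ± 1335 in controls at 12 h, a rise of 0.71 ± 0.15 (adjusted p = 0.00202). The second probe set gave 1.69 at 12 h (adjusted p = 5.74e-06), more than 1.5 times the fold of the first.

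Itga8, the alpha subunit of a receptor for nephronectin and other RGD-containing ligands, had signals of 355, 799 and 706 with EGF at 4 h, against 496, 436 and 546 in controls, which overlapped (log2 fold change 0.25 ± 0.39, adjusted p = 0.691). At 12 h it had 341, 241 and 243 with EGF, against 145, 44.6 and 132 in controls. The EGF arrays were the higher at 12 h, by 1.28 ± 0.39 (adjusted p = 0.0211), though all signals were low. That call was lost without control replicate 2, the dimmest array (0.86, adjusted p = 0.0914), or without EGF replicate 1 (1.12, adjusted p = 0.0616), and with each time fitted alone (adjusted p = 0.0771).

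Upstream sequence was available for 44 of the 67 members, matched by symbol to the RefSeq table of the GRCr8 build, 15 of them tested. Each window held the 250 bases before the annotated start. The windows of Itga3 (chr10:80518902-80519151, minus strand), Itga5 (chr7:136381306-136381555, minus strand) and Itgb1 (chr19:73602027-73602276, plus strand) are shown because these subunits rose and their windows differ in the motifs searched, with matches to GGAATG, a core recognised by TEAD factors, in capitals.
Itga3: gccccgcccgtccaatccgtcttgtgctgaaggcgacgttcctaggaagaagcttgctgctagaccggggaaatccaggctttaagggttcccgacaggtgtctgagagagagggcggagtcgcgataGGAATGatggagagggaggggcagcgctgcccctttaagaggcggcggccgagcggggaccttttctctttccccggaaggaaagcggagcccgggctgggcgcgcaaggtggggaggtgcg
Itga5: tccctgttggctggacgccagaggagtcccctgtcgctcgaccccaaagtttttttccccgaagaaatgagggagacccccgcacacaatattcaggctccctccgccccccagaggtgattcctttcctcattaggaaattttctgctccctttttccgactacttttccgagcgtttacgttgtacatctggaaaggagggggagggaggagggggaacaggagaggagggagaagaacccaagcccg
Itgb1: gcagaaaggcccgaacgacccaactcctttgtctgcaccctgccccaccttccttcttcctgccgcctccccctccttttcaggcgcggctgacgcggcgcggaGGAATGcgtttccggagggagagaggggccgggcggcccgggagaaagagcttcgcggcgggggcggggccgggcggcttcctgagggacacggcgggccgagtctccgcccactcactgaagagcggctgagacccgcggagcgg
GGAATG was searched on both strands. It lay in the windows of Itga3, 122 bases before the start, and Itgb1, 146 bases before it, and the Itga5 window held none. The windows of Itga8, called higher at 12 h, and Pcdh18, called higher at 4 h and lower at 12 h, also held none and are not shown. GGAATG occurred in 12.1% of all 33469 windows in the table, in 6 of the 44 member windows and in 2 of the 15 windows of tested members, which are those of Itga3 and Itgb1. A link of the motif to the EGF effect was not tested. The AP-1 motif TGANTCA, also searched on both strands, occurred in 6.34% of all windows, in 4 of the 44 member windows and in 0 of the 15 of tested members. Neither motif contains the other.

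Other integrin subunits fell or did not pass. Itga11, the alpha subunit of a collagen receptor, had signals of 847, 897 and 672 with EGF at 4 h, against 1699, 1578 and 1111 in controls, a log2 fold change of -0.83 ± 0.34 that did not pass (adjusted p = 0.0899). At 12 h its signals were 4.1, 31.8 and 11.2 with EGF, against 166, 176 and 98.4 in controls. The EGF arrays were lower at both times, and at 12 h they stood near the bottom of the array's range. The 12 h fold change was -2.12 ± 0.34 (adjusted p = 3.24e-04), with a size set by the offset, since it was -1.10 with an offset of 97.6 and -3.50 with an offset of 1. With each time fitted alone the 12 h call was lost (adjusted p = 0.0561) and the 4 h fold change passed (adjusted p = 0.00979), and the 4 h value also passed with the offset of 97.6 (adjusted p = 0.024).

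Itgb5, the beta subunit of a second vitronectin receptor, averaged 5707 ± 575 with EGF and 9523 ± 1653 in controls at 4 h (SD, n = 3 each), and its log2 fold change was -0.73 ± 0.15 (adjusted p = 0.00262). The 12 h averages were 3042 ± 65.3 with EGF and 4121 ± 486 in controls, a log2 fold change of -0.43 ± 0.15 (adjusted p = 0.0379). Median centring ended that 12 h call (adjusted p = 0.134), as did leaving out control replicate 1 or 2 or EGF replicate 1 or 2 at 12 h, with adjusted p of up to 0.140. In all, the 12 h call was lost in 13 of 26 alternatives, among them the second probe set (-0.56, adjusted p = 0.0571). Itgb4, which pairs with the alpha 6 subunit in hemidesmosomes, fell at 12 h, with 1041 ± 238 with EGF and 2046 ± 119 in controls and a log2 fold change of -0.98 ± 0.25 (adjusted p = 0.00848). At 4 h it had -0.60 ± 0.25, which did not pass (adjusted p = 0.1), but -0.81 without control replicate 1 passed (adjusted p = 0.0447). Thus of the beta subunits that passed at 12 h Itgb1 and Itgb3 were called higher, and Itgb4 and Itgb5 lower. Itga1, a collagen-binding subunit, averaged 1505 ± 409 with EGF and 2332 ± 276 in controls at 4 h, a log2 fold change of -0.65 ± 0.24 (adjusted p = 0.0591) that passed with the replicate number as a block (adjusted p = 0.0454), with each time fitted alone (adjusted p = 0.0231) and with EGF replicate 3 at 4 h left out (-0.86, adjusted p = 0.0225). It also passed when control replicate 1 or 3 or EGF replicate 3 at 12 h was left out. Itgav, the partner of Itgb3 and Itgb5, had log2 fold changes of -0.12 at 4 h (adjusted p = 0.529) and 0.05 at 12 h (adjusted p = 0.796). Its second probe set gave -0.12 at 4 h (adjusted p = 0.839) and 0.75 ± 0.36 at 12 h (adjusted p = 0.12), and neither passed. The leukocyte subunits Itgal and Itgb2 were just above the filter and passed at neither time.

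Among the cadherins the largest decrease was that of Cdh1, or E-cadherin, which joins epithelial cells at adherens junctions. At 4 h its signals were 7954, 7310.0 and 5821 with EGF, against 10768, 11131 and 8408 in controls. At 12 h they were 3523, 3842 and 5239 with EGF, against 20888, 23209 and 26621 in controls. The groups did not overlap at either time, but they lay close together at 4 h and several-fold apart at 12 h. The log2 fold changes were -0.52 ± 0.18 at 4 h (adjusted p = 0.0418) and -2.50 ± 0.18 at 12 h (adjusted p = 2.04e-07). The 4 h call was lost with median centring and without EGF replicate 2 or 3 or control replicate 1 or 2 at 4 h or any one of the 12 h controls, whereas the 12 h value was -2.66 without EGF replicate 3. Its other probe set was too dim to test, with a mean of 67.2.

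Cdh10, a type II cadherin expressed in brain, had signals of 254, 295 and 235 with EGF at 4 h, against 1013, 953 and 1336 in controls. The 12 h signals were 505, 530.5 and 422 with EGF, against 1037, 879 and 1432 in controls. Every EGF array was below every control array. The log2 fold change was -1.97 ± 0.23 at 4 h (adjusted p = 2.96e-05) and -1.14 ± 0.23 at 12 h (adjusted p = 0.00157). Cdh11, a type II cadherin of mesenchymal cells, also fell. It averaged 21455 ± 1527 with EGF and 41900.1 ± 3079.6 in controls at 4 h, a log2 fold change of -0.96 ± 0.14 (adjusted p = 1.97e-04). It averaged 33226 ± 5671 with EGF and 44729 ± 4713 in controls at 12 h, a log2 fold change of -0.44 ± 0.14 (adjusted p = 0.0259). The 12 h call was lost with median centring (-0.34, adjusted p = 0.122), without EGF replicate 3 (-0.31, adjusted p = 0.0716), without control replicate 2 (-0.45, adjusted p = 0.0634) or without control replicate 3 (-0.36, adjusted p = 0.111), while its second probe set gave -0.83 (adjusted p = 0.00586).

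Cdh13, or T-cadherin, which is held to the membrane by a glycolipid anchor and lacks a cytoplasmic tail, had signals of 4021, 4257 and 3669 with EGF at 4 h, against 6136, 5682 and 4419.6 in controls. Signals at 12 h were 7689, 10295 and 9317 with EGF, against 3308, 3041 and 4172 in controls. The EGF arrays lay below the controls at 4 h and above them at 12 h. The 4 h log2 fold change of -0.43 ± 0.17 did not pass (adjusted p = 0.0695), and the rise at 12 h was 1.37 ± 0.17 (adjusted p = 2.77e-05). The 4 h difference passed without control replicate 3 at 4 h (-0.57, adjusted p = 0.0298), and omitting EGF replicate 3 at 12 h from the fit also gave a call (adjusted p = 0.0409). A second probe set gave -0.41 at 4 h and 1.23 at 12 h.

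Cdh17, a cadherin best known from intestine and liver, was dim at both times. It had 178, 139 and 182 signal units with EGF at 4 h, against 387, 131 and 148 in controls, which overlapped (log2 fold change -0.23 ± 0.41, adjusted p = 0.725). At 12 h it had 479.6, 286 and 409 with EGF, against 116, 92.3 and 136 in controls. The groups were apart at 12 h, with a log2 fold change of 1.56 ± 0.41 (adjusted p = 0.00936). Cdh17 reached the filter of 215.4 through those EGF arrays alone, since its signal averaged 168 over the other 3 groups, so it entered the test through the group where it was high. With no filter on dim probe sets its adjusted p was 0.0162. Cdh3, or P-cadherin, averaged 2071 ± 259.9 with EGF and 1353 ± 318 in controls at 4 h, a log2 fold change of 0.62 ± 0.20 (adjusted p = 0.034). Blocking on the replicate number ended that call (adjusted p = 0.056), as did leaving out EGF replicate 1 or 2 or control replicate 1 or 3 at 4 h (adjusted p of up to 0.146). Its 12 h value of 0.51 ± 0.20 did not pass (adjusted p = 0.0646), but it passed with median centring (0.61, adjusted p = 0.0323) and without EGF replicate 1 (0.60, adjusted p = 0.0478). Cdh15, the muscle cadherin, passed at neither time.

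**Figure D3:**
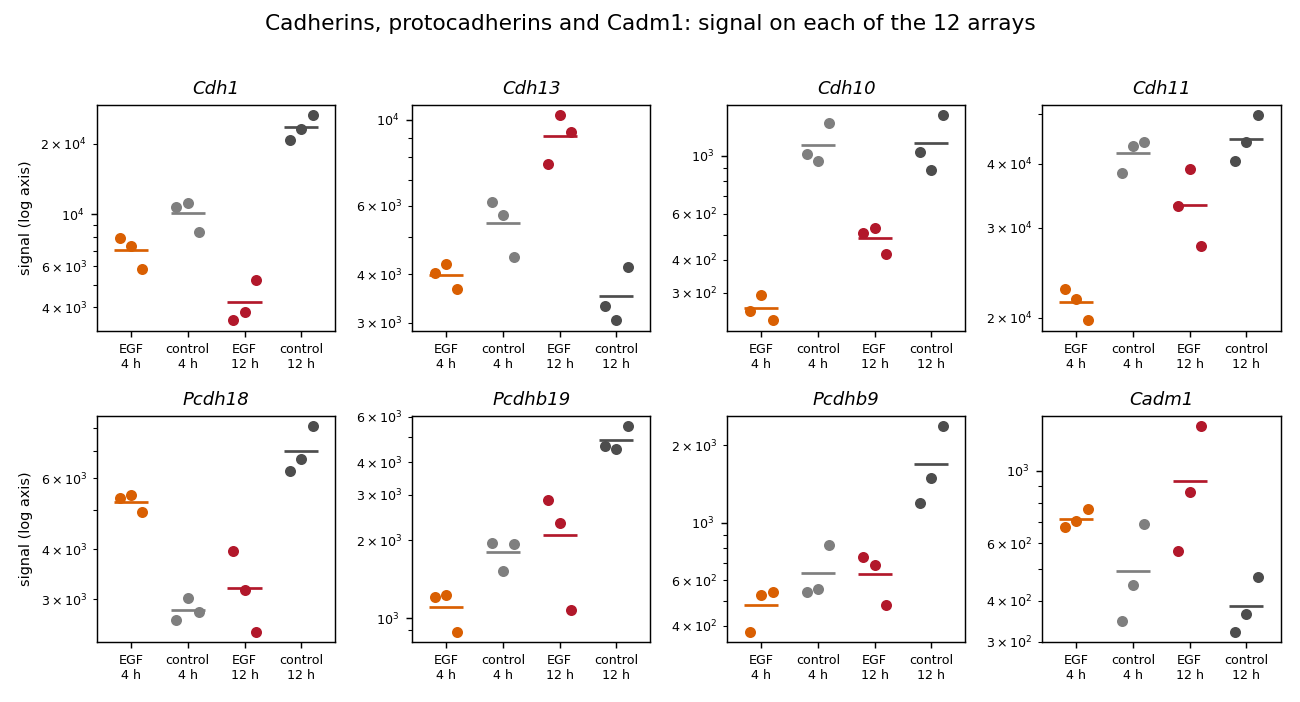
Signal on each array, on a log axis, of Cdh1, Cdh13, Cdh10, Cdh11, Pcdh18, Pcdhb19, Pcdhb9 and Cadm1, with EGF arrays left of their controls at each time and short lines at the group means. Cdh1 at 12 h shows 3523 to 5239 with EGF below 20888 to 26621 in controls, and Cdh13 and Pcdh18 change sides between the times.

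Pcdh18, a protocadherin outside the gene clusters, had signals of 5348, 5448 and 4933 with EGF at 4 h, against 2669.6, 3017 and 2786 in controls. The 12 h signals were 3960.4, 3162 and 2498 with EGF, against 6236, 6691 and 8069 in controls. The EGF arrays were all above the controls at 4 h and all below them at 12 h. The log2 fold change was 0.89 ± 0.16 at 4 h (adjusted p = 0.0012) and -1.14 ± 0.16 at 12 h (adjusted p = 1.21e-04). Pcdh19, whose human gene is mutated in a form of epilepsy, averaged 6579 ± 880.0 with EGF and 4027 ± 536 in controls at 4 h, a log2 fold change of 0.70 ± 0.21 (adjusted p = 0.0235). That call was lost without EGF replicate 2 or 3 or control replicate 1 or 3 at 4 h, with adjusted p of up to 0.092. At 12 h Pcdh19 averaged 12675 ± 4471 with EGF and 8288 ± 1063 in controls, and 0.56 ± 0.21 did not pass (adjusted p = 0.0527). The 12 h value was 0.30 without EGF replicate 3 (adjusted p = 0.166), passed at 0.79 without EGF replicate 1 (adjusted p = 0.00682) and passed at 0.66 with median centring (adjusted p = 0.0202).

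Clustered protocadherins are expressed in different combinations in individual neurons and act in self-recognition. Of 9 members of this kind 5 were tested, and 3 of them fell at 12 h, when 24.2% of all tested genes were called lower. Pcdhb19 had 1206, 1233 and 891 signal units with EGF at 4 h, against 1951, 1519.9 and 1936 in controls, a log2 fold change of -0.69 ± 0.28 that did not pass (adjusted p = 0.0871). It passed when EGF replicate 3 at 12 h was left out of the shared fit (adjusted p = 0.00317) and with each time fitted alone (adjusted p = 0.0125). Signals at 12 h were 2878, 2339 and 1078 with EGF, against 4632, 4508 and 5523 in controls. The groups did not overlap, and EGF replicate 3 was the lowest array. The log2 fold change was -1.32 ± 0.28 (adjusted p = 0.00265), and -0.90 without EGF replicate 3. Pcdhb9 had 381, 529 and 541 with EGF at 4 h, against 541, 557 and 819 in controls (log2 fold change -0.38 ± 0.28, adjusted p = 0.349). At 12 h it had 740.3, 688 and 482 with EGF, against 1196, 1488 and 2365 in controls. All EGF arrays were below the controls at 12 h, with a log2 fold change of -1.33 ± 0.28 (adjusted p = 0.00205). Pcdhb12 averaged 407 ± 25.4 with EGF and 720.5 ± 102 in controls at 12 h, a log2 fold change of -0.78 ± 0.24 (adjusted p = 0.0196) that did not pass without control replicate 2 (adjusted p = 0.0592) or 3 (adjusted p = 0.0768) and was -0.41 on its second probe set (adjusted p = 0.28). Pcdha13 and Pcdhb22 passed at neither time. Beta protocadherins are near-identical in parts of their sequence, so signal shared between neighbouring genes of the cluster cannot be told apart here.

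Of the immunoglobulin-type molecules 3 were tested. Cadm1, a homophilic adhesion molecule that also acts at synapses, had signals of 674, 701 and 762 with EGF at 4 h, against 346, 448 and 688 in controls, which overlapped (log2 fold change 0.56 ± 0.31, adjusted p = 0.212). The 12 h signals were 570.0, 863 and 1372 with EGF, against 322, 364 and 473 in controls. All EGF arrays at 12 h were above the controls, with the widest spread within the EGF group. The rise was 1.15 ± 0.31 (adjusted p = 0.0111), 1.31 on a second probe set and 0.84 without EGF replicate 3 (adjusted p = 0.0389). Alcam, a cell adhesion molecule that binds itself and CD6, averaged 17505 ± 176 with EGF and 22528 ± 1379 in controls at 4 h, a log2 fold change of -0.36 ± 0.11 (adjusted p = 0.0252). That call was lost with median centring, and without EGF replicate 1 or 2 or control replicate 2 or 3 at 4 h it had adjusted p of up to 0.0868. Its 12 h fold change was -0.10 (adjusted p = 0.504), and -0.30 with quantile normalization, which passed (adjusted p = 0.0242). Ncam1, the neural cell adhesion molecule of astrocytes and neurons, had log2 fold changes of -0.15 ± 0.25 at 4 h (adjusted p = 0.695) and -0.17 ± 0.25 at 12 h (adjusted p = 0.617), and neither passed.

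The remaining 37 members were too dim to test, with mean signals of 16.6 to 188.55 and a highest single signal of 441. They included all 6 contactins, L1cam, Ncam2, Nrcam, Cadm3 and Cadm4. Cdh2, or N-cadherin, the cadherin usually described in astrocytes, was dim on all 3 of its probe sets, with 39 to 226 signal units on the brightest. The leukocyte alpha subunits Itgad, Itgam and Itgax and the laminin-binding subunit Itga7 were also below the filter. Itga7 had 236, 441 and 278.5 with EGF at 12 h, against 99.6, 61.1 and 64.3 in controls, which did not overlap. Pcdh20 had 21.5, 28.4 and 15.3 with EGF at 4 h, against 219.6, 130.1 and 126.5 in controls. With no filter on dim probe sets 0 of the 37 passed with limma at either time, the lowest adjusted p being 0.0523 for Pcdh20 at 4 h. In the same fit 4 of them at 4 h and 7 at 12 h had an unadjusted p under 0.05. The share of all genes under that unadjusted threshold was not counted, so these counts are descriptions. In that fit the counts over all 67 members were 7 higher and 3 lower at 4 h, where 8.59% and 12.5% of all 14217 genes were called, and 8 higher and 8 lower at 12 h, where 10.9% and 16.3% were. Over all 67 members the EGF arrays lay wholly above the controls for 11 genes and wholly below for 15 at 4 h, where 15.0% and 26.4% of all genes did, and for 13 and 12 genes at 12 h, where 16.9% and 25.1% did.

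The EGF effect differed between the times, by the interaction term of the fit, for 4 of the 30 tested members. It was higher at 12 h for 2 and lower for 2, where 6.55% and 7.45% of tested genes were called. The 12 h effect exceeded the 4 h effect by 1.80 ± 0.23 for Cdh13 (adjusted p = 3.52e-04) and by 0.93 ± 0.24 for Itga6 (adjusted p = 0.0255). The 12 h minus 4 h difference was -2.02 ± 0.23 for Pcdh18 (adjusted p = 1.4e-04) and -1.97 ± 0.25 for Cdh1 (adjusted p = 3.11e-04). The Itga6 difference was 0.75 without both replicate 3 arrays at 4 h and did not pass (adjusted p = 0.077), and it was also lost without EGF replicate 1 or 2 or control replicate 3 at 4 h or EGF replicate 2 or control replicate 1 or 3 at 12 h, with adjusted p of 0.0502 to 0.0742. On the second probe set of Itga6 the difference was 1.05 ± 0.57 and did not pass (adjusted p = 0.2665). Fitting with no intensity trend also lost the Itga6 call (adjusted p = 0.0515). Without EGF replicate 2 at 12 h the Itga11 difference passed at -1.56 (adjusted p = 0.045). Without EGF replicate 3 at 12 h, differences also passed for Itga5, in the lower direction (adjusted p = 0.0203), Itgb1 at 0.65 (adjusted p = 0.0322) and Cdh11 at 0.65 (adjusted p = 0.0192). The times came from separate experiments whose arrays differed in the control signals given above, so time and experiment cannot be told apart. Without both replicate 3 arrays at 4 h 5 members were called higher and 3 lower at that time, and Cdh3 (adjusted p = 0.0711), Cdh1 (adjusted p = 0.0802), Alcam (adjusted p = 0.118) and Pcdh19 (adjusted p = 0.150) no longer passed. In that fit 1669 of all 18625 tested probe sets were called higher and 2109 lower at 4 h, beside 2118 and 3068 with all arrays.

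Inside the cell integrins connect to actin through adaptors, of which 29 were tested. With EGF 6 of them rose and 1 fell at 4 h, and 13 rose and 5 fell at 12 h. Of all tested genes 12.8% were called higher and 19.6% lower at 4 h, and 16.5% and 24.2% at 12 h. Pxn, the scaffold paxillin, rose by 1.24 ± 0.12 on the log2 scale at 4 h and by 0.78 ± 0.12 at 12 h. Actn1, the actin cross-linker alpha-actinin, rose by 0.58 ± 0.15 at 4 h (adjusted p = 0.012) and by 2.33 ± 0.15 at 12 h (adjusted p = 1.06e-07). Parvb, beta-parvin of the integrin-linked kinase complex, rose by 1.92 ± 0.35 at 4 h and by 4.29 ± 0.35 at 12 h, and Lims2, another member of that complex, had fold changes of -2.98 ± 0.43 and -2.96 ± 0.43. Vasp, an actin regulator of focal adhesions, rose by 1.22 ± 0.20 at 4 h and by 1.21 ± 0.20 at 12 h. Among 18 tested integrin ligands other than collagens 5 rose and 2 fell at 4 h, and 6 rose and 8 fell at 12 h. Of these, 3 were called higher at 4 h and lower at 12 h. They were Tnc, the matrix protein tenascin C, at 2.06 ± 0.12 and -0.54 ± 0.12, Icam1, a ligand of leukocyte integrins, at 0.37 ± 0.13 and -1.11 ± 0.13, and Postn, the matrix protein periostin, at 0.54 and -0.55, named after its values were seen. Lamc1, a laminin chain, rose by 0.80 at 4 h and had -0.12 at 12 h, which did not pass (adjusted p = 0.415). Nid2, a basement membrane linker, rose by 0.90 and 2.72, and Vcam1, a ligand of alpha 4 integrins, had -1.67 and -1.71. Lamb2, another laminin chain, had -0.45 at 4 h, which did not pass (adjusted p = 0.074), and -1.81 at 12 h, which did.

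Of 14 tested catenins and other cadherin partners 4 rose at 4 h, and 3 rose and 2 fell at 12 h. Nectin3, a nectin of adherens junctions, rose by 0.86 ± 0.16 at 4 h and by 1.29 ± 0.16 at 12 h. Afdn, which links nectins to actin, rose by 0.79 at 4 h, and Adam17, a membrane protease that sheds adhesion molecules, by 0.74, and Pkp4, a plakophilin-related catenin, by 0.71. Ptprm, a homophilic receptor phosphatase, rose by 1.85 ± 0.24 at 12 h, when Nectin2 had -0.92 ± 0.14 and Ctnnal1 -1.35 ± 0.18. Among 6 tested transcription factors known to repress Cdh1 in epithelial cells 4 rose and 1 fell at 4 h, and 3 rose and 1 fell at 12 h. Twist1 rose by 1.31 and 0.63, Twist2 by 2.68 and 1.89, Zeb1 by 0.65 at 4 h and Zeb2 by 0.73 at 12 h, while Tcf4 had -1.37 and -0.93. Twist2 was dim outside the EGF arrays at 4 h, through which it entered the test. In 12 tested adhesion genes of other neural families 1 fell at 4 h, and 1 rose and 4 fell at 12 h. Fat1, a giant cadherin-related protein, had -0.64 at 4 h and -1.04 at 12 h, and at 12 h Celsr2, a cadherin of planar cell polarity, had -1.70, the postsynaptic adhesion gene Nlgn2 -1.47 and the netrin receptor gene Neo1 -0.77. These lists had been chosen with earlier results of these data known, so their counts are descriptions, to be read beside the shares of all tested genes given above.

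Markers of other cell types moved with treatment, and their part in the results was not tested. Beside their counts, 12.8% of all tested genes were called higher and 19.6% lower at 4 h, and 16.5% and 24.2% at 12 h. For oligodendrocyte lineage markers 5 of 10 were tested, with 3 lower at 4 h and 3 lower and 1 higher at 12 h. Their signal summed over the measured genes was 5577.2 to 6362.3 with EGF and 9899.6 to 10540.9 in controls at 4 h, and 6179.3 to 7595.4 with EGF and 12887.8 to 14050.9 in controls at 12 h, with Olig1, Olig2, Sox10 and Mog below the filter. For fibroblast and meningeal markers 9 of 10 were tested, with 2 lower at 4 h and 5 lower at 12 h, and summed signals of 211917 to 226912 with EGF and 245196 to 276163 in controls at 4 h and of 115836 to 190120 with EGF and 211570 to 252522 in controls at 12 h. For microglia and macrophage markers 4 of 10 were tested, with 1 higher at 4 h and 2 higher at 12 h. Their sums were 6567.4 to 7738.2 with EGF and 4704.4 to 5283.0 in controls at 4 h and 6329.2 to 8983.0 with EGF and 3586.3 to 4097.9 in controls at 12 h, with Ptprc, Itgam, Tyrobp and the C1q genes below the filter. For endothelial and pericyte markers 2 of 9 were tested and Tek fell at both times, with sums of 1655.8 to 2339.4 with EGF and 3198.0 to 3859.3 in controls at 4 h and 1524.5 to 1994.7 with EGF and 3080.5 to 3656.1 in controls at 12 h. Of 9 neuron markers Gap43 alone was tested, and it rose at both times, with list sums of 1245.8 to 1592.9 with EGF and 992.7 to 1223.8 in controls at 4 h and 7848.8 to 11091.6 with EGF and 709.1 to 1094.5 in controls at 12 h. Of 5 tested Schwann cell markers 2 rose at 4 h, and 2 rose and 2 fell at 12 h, with list sums of 29710.5 to 31554.6 with EGF and 19768.5 to 21043.6 in controls at 4 h and 16998.6 to 18516.6 with EGF and 11083.7 to 13692.5 in controls at 12 h. Gap43, with a log2 fold change of 4.65 at 12 h, is also on the Schwann cell list, together with the members Ncam1 and L1cam. The sums of the neuron and Schwann cell lists are thus not independent. Neither sum was taken without Gap43, so a higher sum at 12 h does not show that the other markers of its list rose. None of the defining markers named here was at exactly 0.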

How the data were processed

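Total RNA of the cultures was hybridised as biotinylated cRNA to 12 rat expression arrays of 31099 probe sets. The deposited values are MAS5 signals, an intensity per probe set, per the submitters' processing notes, and all arrays shared a trimmed mean of about 1500.5, so they were not rescaled. Other steps of the authors are not given in the sources used here. Groups were taken from sample titles, since the descriptions call every sample a control. The 57 control probe sets and the 12417 below the 40th percentile of mean signal were left out, and limma 3.58.1 in R 4.3.3 fitted the 4 group means to log2(signal + 24.4) with an intensity trend and 8 residual degrees of freedom. The number of arrays, 3 in each group, limits the precision. At 4 h same-numbered EGF and control arrays had r = 0.121, 0.150 and 0.376. The highest r with a differently numbered array was 0.142 for EGF replicate 1 and 0.138 for EGF replicate 2. It was -0.203 for EGF replicate 3. Thus replicate 3 alone stood clearly apart, and both of its arrays had the high hybridisation control signals. At 12 h same-numbered arrays did not deviate together (r = 0.0826, -0.111 and -0.103). Members and lists were chosen with earlier results of these data known. Values on every array are given for members past the threshold with a log2 fold change of at least 1 in size, and of each pathway list up to 4 genes with the smallest p at each time were named. Alternatives changed the offset, filter, scaling, variance trend, probe set, block, arrays in the fit and each array in turn. Promoter windows came from RefSeq (GRCr8).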

Additional observations from a re-analysis of the deposited data

Results flagged for a closer look

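The EGF effect differed between 12 h and 4 h, by the interaction term of the limma fit, for 4 of the 30 tested members. That is 13.3% of them, close to the 14.0% of all tested genes that were called, so the count is not particular to these members. The 12 h minus 4 h difference of log2 fold changes was -2.02 for Pcdh18, which rose at 4 h and fell at 12 h, -1.97 for Cdh1, 1.80 for Cdh13 and 0.93 for Itga6. The differences for Pcdh18, Cdh1 and Cdh13 kept their direction and their call in every alternative that gave a value, whereas that for Itga6 was lost in 9 alternatives. Groups of 3 arrays were not searched for single outlying arrays.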

How the results depend on the processing

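No fold change of a tested member reversed its call in any alternative. The count lower at 4 h, 5 as reported, was 3 with no filter on dim probe sets, 3 with median centring, 9 with each time fitted alone, 8 when the array sets described above formed a block and 3 without both 4 h arrays of number 3. Over all tested probe sets the count lower at 4 h was 3068 of 18625 as reported and 2746 of 31042 with no filter. It was 2189 with median centring, 3830 with each time fitted alone, 4960 with that block and 2109 without both 4 h arrays of number 3. With 1 array left out the member count ranged from 3, without EGF replicate 2 or control replicate 2 at 4 h, to 8, without EGF replicate 3 at 12 h. In those fits 2233, 2329 and 4181 of all tested probe sets were lower. The count whose EGF effect was higher at 12 h, 2 as reported, was 4 with the array sets as a block, 1 without both 4 h arrays of number 3, and 4 with median centring added either to that block or to leaving out EGF replicate 3 at 12 h, both chosen after seeing the data; with 1 array left out it ranged from 1 to 4. The count whose effect was lower at 12 h was 1 with the second probe set, because that of Cdh1 was too dim to test, and 2 to 3 with 1 array left out. For the other moves the cause was not tested. Over all tested probe sets the EGF effect was higher at 12 h for 1015 as reported. That count was 2168 with the array sets as a block and 742 without both 4 h arrays of number 3. With 1 array left out the member counts higher were 5 to 7 at 4 h and 8 to 9 at 12 h, and the member count lower at 12 h was 7 to 10. With the replicate block 6 members were higher and 6 lower at 4 h, and 9 and 10 at 12 h. Over all tested probe sets that block gave 2144 higher and 3076 lower at 4 h, and 2929 and 3921 at 12 h. At 12 h, where the numbers do not pair the arrays, Itgb3 lost its call (adjusted p = 0.0567) and Pcdh19 passed (adjusted p = 0.0463), and at 4 h the block changed the calls of Cdh3 and Itga1 alone. For Itga11, close to background at 12 h, the size of the fold change depends on the offset.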
